A study of Homo sapiens with 8 samples.

Results

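The interaction of TGF-β1 and MTHFD2 knockdown asks, gene by gene, whether fibroblasts answer the cytokine differently once MTHFD2 has been lowered. For each gene it is the log2 change with TGF-β1 in cells carrying a hairpin against MTHFD2 (shMTHFD2) minus the log2 change with TGF-β1 in cells carrying a control hairpin (shMock). The same number is the knockdown difference with TGF-β1 minus the knockdown difference without it. Genes were selected by their level alone, an average of 1 CPM or more over all 8 libraries (CPM being counts brought to equal library size), which kept 13493 of the 60666 gene IDs. A value above 0 means that the response was more positive in shMTHFD2, either a stronger rise or a weaker fall.

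Bulk RNA was sequenced from the established human lung fibroblast line MRC5, with 2 libraries in each of 4 groups: shMock without TGF-β1 (shMock control), shMock with it (shMock TGF-β1), and the same pair for shMTHFD2. The labels give 4 ng of TGF-β1, with no volume, and 24 h. That treatment text stands on the untreated samples as well, so the groups follow the titles and the treatment field. All 4 groups share the cell line and the presence of a hairpin, and 1 hairpin stands for the knockdown, so loss of MTHFD2 and other differences between the 2 lines cannot be told apart. In 3 shMTHFD2 samples the genotype field carries another gene number (MTHFD3, MTHFD4 or MTHFD5), and the extraction text speaks of a different cell line and hairpin. The labels do not say that replicates were separate cultures, so every p-value reflects only how far these libraries spread, which may be technical.

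TGF-β1 binds a pair of receptor kinases that phosphorylate SMAD proteins, and in lung fibroblasts this signal is known to raise contractile proteins, collagens and other matrix genes while lowering genes of the resting state. MTHFD2 is a mitochondrial enzyme of the folate pathway that passes one-carbon units from serine towards purines and other products. An interaction term separates genes for which treatment and knockdown add up on the log scale from genes for which they do not.

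Library totals ran from 18162738 to 22221927 counts, and log CPM of replicates correlated at 0.984 to 0.988 over the genes. MTHFD2 itself stood at 58.8 and 57.1 CPM in the untreated shMock libraries and at 256 and 258 CPM in the treated ones, against 14.9 and 18.7 CPM untreated and 93.8 and 91.8 CPM treated in shMTHFD2. Every shMTHFD2 library lay below both shMock libraries of its condition, and the interaction of MTHFD2 was 0.32 (SE 0.13, edgeR adjusted p = 0.347). Fibroblast markers summed to 27856 to 51828 CPM, with 12 of 13 past the filter. Of the markers of other cells, 8 of 12 smooth muscle, pericyte and mesothelial genes passed it and summed to 264 to 374 CPM. For endothelial genes 3 of 9 passed (40.8 to 110 CPM in sum) and for epithelial genes 3 of 12 (33.6 to 47.6 CPM). Of the leukocyte genes 1 of 10 passed, at 46.8 to 106 CPM. PECAM1, EPCAM and PTPRC were among those under 1 CPM.

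Few genes were called for a difference in response, with 2 libraries per group. An unadjusted p under 0.05 in edgeR was met by 1718 genes (12.7%). Library responses of the 2 lines did not overlap in 3741 genes (27.7%). With edgeR's quasi-likelihood test, 12 of 13493 genes (0.0889%) had an adjusted p under 0.05, 5 of them higher (0.0371%) and 7 lower (0.0519%). Of these, 9 carry a gene symbol. The inflammatory pattern-recognition protein PTX3, the vasoactive peptide ADM, the transcription factor OSR1 and the purine enzyme GMPR were higher. The activin subunit INHBA, the adhesion protein AMIGO2, the nuclear envelope protein SYNE1, the kinase STK38L and the ankyrin-repeat protein ANKHD1 were lower. In 7 of the 9 the response in shMTHFD2 had the sign of that in shMock and was smaller. In 0 it was larger, and in 2 the signs were opposite. The shares of these 3 forms were 46.2%, 28.2% and 25.6% over all tested genes. Over the 5425 genes called for the response of either line they were 64.8%, 27.8% and 7.39%. Over the 1718 genes at an unadjusted interaction p under 0.05 they were 48.1%, 9.25% and 42.7%. The count moved with single libraries: it was 42 without shMock control replicate 1, 4 without shMock control replicate 2, 3 without shMock TGF-β1 replicate 1, 185 without shMTHFD2 control replicate 1 and 3 without shMTHFD2 control replicate 2. Without shMock TGF-β1 replicate 2 it was 9 (5 higher, 4 lower), without shMTHFD2 TGF-β1 replicate 1 it was 8 (2 higher, 6 lower), and without shMTHFD2 TGF-β1 replicate 2 it was 17 (6 higher, 11 lower). DESeq2 called 105 genes, 53 higher and 52 lower, and it shared 9 calls with the 12.

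The precision of the design sets what a missing call can mean. The median SE of an interaction was 0.175 on the log2 scale, and the median interaction was 0.02. For 10413 genes (77.2%) the 95% interval lay inside -1 to 1, so a difference of 2-fold or more between the responses is outside the interval of those genes, while smaller differences are not covered by that statement. The smallest called interaction of a gene with a symbol was 0.71 in size. The responses of the 2 lines, which share no library, correlated at r = 0.75 over 13493 genes (Spearman 0.693), a description over genes that are not replicates. For scale, the same fit called 35.4% of genes for the shMock response (17.3% higher, 18.1% lower) and 23.8% for the shMTHFD2 response (12.8% higher, 11% lower). It called 11.4% for the knockdown without TGF-β1 (3.25% higher, 8.19% lower) and 13.1% for the knockdown with it (4.83% higher, 8.23% lower).

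**Figure D1:**
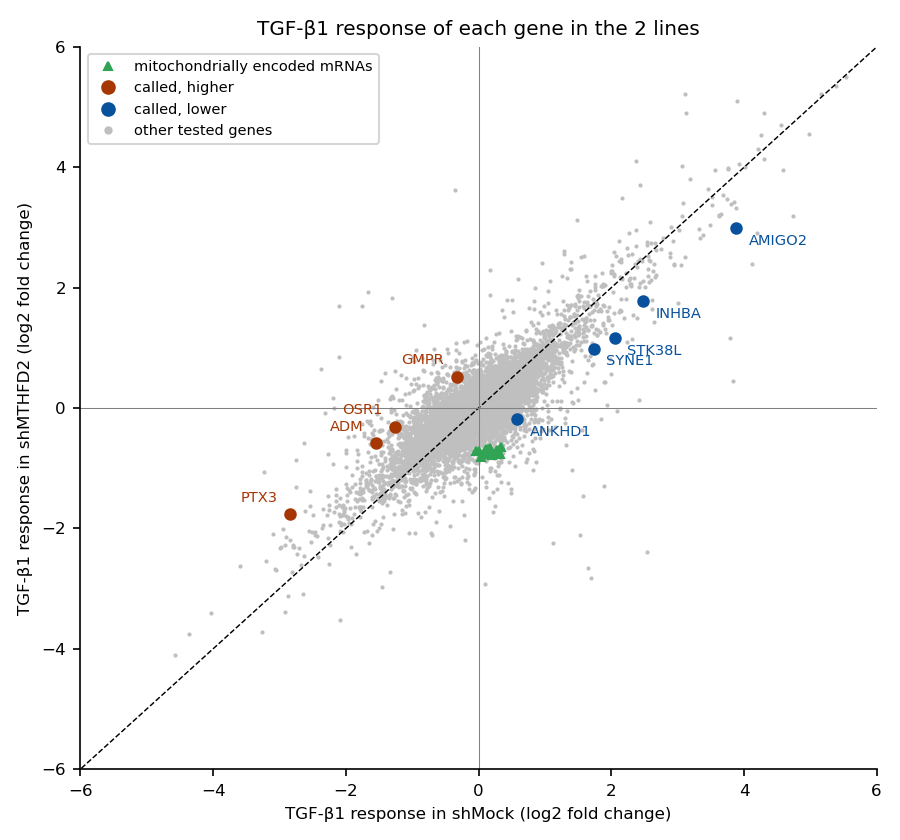
Each point is a tested gene, with its log2 response to TGF-β1 in shMock on the horizontal axis and in shMTHFD2 on the vertical axis, both on the log2 scale, and the dashed line marks equal responses. The 5 called lower genes with a symbol lie below the line, the 4 called higher lie above it, the 13 mitochondrially encoded mRNAs form a tight group below it, and 14 genes fall outside the axes.

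RefSeq start regions were found for 8 of the 9 called genes with a symbol, from 250 bases before to 50 after the start (300 bases, GRCh38.p14). The 4 shown are of genes whose response was smaller in shMTHFD2: INHBA (chr7:41703041-41703340, minus strand) and AMIGO2 (chr12:47079902-47080201, minus strand), which rose with TGF-β1, and ADM (chr11:10304823-10305122, plus strand) and PTX3 (chr3:157436600-157436899, plus strand), which fell. They are written on the gene's own strand, 5′ to 3′, and capitals mark the letters of a searched motif.
INHBA: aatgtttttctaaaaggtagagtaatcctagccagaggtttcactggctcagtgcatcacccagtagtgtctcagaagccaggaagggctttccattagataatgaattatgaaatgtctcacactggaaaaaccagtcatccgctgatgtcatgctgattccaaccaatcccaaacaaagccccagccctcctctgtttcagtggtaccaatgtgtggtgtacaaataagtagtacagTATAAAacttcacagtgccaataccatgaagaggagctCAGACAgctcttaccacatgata
AMIGO2: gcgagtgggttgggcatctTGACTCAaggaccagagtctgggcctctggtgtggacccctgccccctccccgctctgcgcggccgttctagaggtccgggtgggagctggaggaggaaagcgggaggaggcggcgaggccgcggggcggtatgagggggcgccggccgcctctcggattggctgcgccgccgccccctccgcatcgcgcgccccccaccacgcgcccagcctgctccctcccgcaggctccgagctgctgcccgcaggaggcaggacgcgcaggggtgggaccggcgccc
ADM: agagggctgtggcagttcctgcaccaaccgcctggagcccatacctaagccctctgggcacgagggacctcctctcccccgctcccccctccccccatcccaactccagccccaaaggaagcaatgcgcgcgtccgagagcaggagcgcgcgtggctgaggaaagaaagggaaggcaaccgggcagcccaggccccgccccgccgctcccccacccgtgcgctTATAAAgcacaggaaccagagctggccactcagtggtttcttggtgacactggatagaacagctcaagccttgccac
PTX3: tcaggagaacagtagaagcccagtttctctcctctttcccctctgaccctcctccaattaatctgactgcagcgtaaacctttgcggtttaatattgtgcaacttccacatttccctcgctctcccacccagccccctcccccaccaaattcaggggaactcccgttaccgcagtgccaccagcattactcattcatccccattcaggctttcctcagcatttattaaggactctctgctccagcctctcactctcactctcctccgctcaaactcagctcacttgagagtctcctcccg
Short motifs were searched on both strands of each region, and no match overlapped another. The AP-1 letters TGANTCA, bound by JUN and FOS proteins, were found in 1 of the 8 regions, AMIGO2, and in 7.73% of the 34796 regions of this length in the table. The SMAD letters CAGACA were found in 1 of 8, INHBA, and in 16.9% of all regions. The TATA box letters TATAAA were found in 3 of 8, INHBA, ADM and SYNE1, and in 11.6% of all regions. They began at -10 in INHBA, -26 in ADM and -227 in SYNE1, with the start as base 1 and the base before it as 0. The INHBA, ADM, SYNE1 and STK38L regions lie inside the genes as placed by GENCODE, downstream of the GENCODE starts. The hypoxia response core ACGTG was found in 0 of 8 and in 21.4% of all regions, and the PTX3 region held none of the 4 motifs. A match is a stretch of letters, not a measured binding site.

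PTX3 had the lowest p of the called genes with a symbol. This secreted pentraxin (ENSG00000163661, GRCh38 chromosome 3, 157436789 to 157443628, plus strand) binds microbes and matrix and takes part in complement control. Its level was 166 and 162 CPM in shMock control, 22.3 and 23.7 in shMock TGF-β1, 81.7 and 82.3 in shMTHFD2 control, and 23.9 and 24.4 in shMTHFD2 TGF-β1. With TGF-β1 the shMTHFD2 libraries lay just above the shMock ones, and without it they lay well below both. With TGF-β1 PTX3 fell 7.13-fold in shMock cells but 3.4-fold in shMTHFD2 cells, an interaction of 1.07 (SE 0.12, edgeR adjusted p = 0.00137). The knockdown difference was -1.0 without TGF-β1 (edgeR adjusted p = 3.3e-06) and 0.07 with it (edgeR adjusted p = 0.664). PTX3 was called in 16 of the 16 alternatives run, which include the 8 fits that left out 1 library. In bulk RNA, fewer cells that express a gene and less of its RNA per cell cannot be told apart, here and below.

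ADM, a secreted peptide that widens vessels and is raised by low oxygen (ENSG00000148926, chromosome 11, 10304680 to 10307397, plus strand), had the same form. Its level was 261 and 266 CPM in shMock control, 85.2 and 94.9 in shMock TGF-β1, 164 and 127 in shMTHFD2 control, and 99.8 and 94.9 in shMTHFD2 TGF-β1. The untreated groups did not overlap, while with TGF-β1 the groups met at 94.9 CPM. ADM fell by 1.55 on the log2 scale in shMock and by 0.58 in shMTHFD2 (interaction 0.97, SE 0.15, edgeR adjusted p = 0.031). The call held in 4 of the 8 fits that left out 1 library, those without shMock control replicate 1, shMock TGF-β1 replicate 2, shMTHFD2 control replicate 1 or shMTHFD2 TGF-β1 replicate 2, and over all alternatives its adjusted p reached 0.124.

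OSR1, a zinc-finger transcription factor of embryonic mesenchyme (ENSG00000143867, chromosome 2, 19351485 to 19358653, minus strand), differed on the treated side. It stood at 39.3 and 37.3 CPM in shMock control, 15.1 and 16.9 in shMock TGF-β1, 45.4 and 41.4 in shMTHFD2 control, and 37.2 and 32.7 in shMTHFD2 TGF-β1. The shMock libraries with TGF-β1 lay apart from and below all the others. OSR1 fell 2.40-fold with TGF-β1 in shMock and 1.24-fold in shMTHFD2, an interaction of 0.95 (SE 0.16, edgeR adjusted p = 0.0328). OSR1 RNA was 2.19-fold higher in the treated knockdown cells than in treated shMock cells (edgeR adjusted p = 2.9e-05), and without it the knockdown difference was 0.18 (edgeR adjusted p = 0.321). Of the fits that left out 1 library, those without shMTHFD2 control replicate 1 or shMTHFD2 TGF-β1 replicate 2 called it, with an adjusted p of up to 0.193 elsewhere.

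GMPR, which turns GMP into IMP in purine interconversion (ENSG00000137198, chromosome 6, 16238580 to 16295549, plus strand), moved in opposite directions. It stood at 43.8 and 47.8 CPM in shMock control and 34.9 and 38.0 in shMock TGF-β1, against 24.4 and 25 in shMTHFD2 control and 35.1 and 35.8 in shMTHFD2 TGF-β1. The treated groups of the 2 lines overlapped and the untreated ones did not. GMPR fell 1.26-fold in shMock (edgeR adjusted p = 0.0158) and rose 1.44-fold in shMTHFD2 (edgeR adjusted p = 0.00114), which gives an interaction of 0.85 (SE 0.14, edgeR adjusted p = 0.0328). It was called without shMock control replicate 1 or shMTHFD2 control replicate 1 and not without any other single library, where the adjusted p went up to 0.17. With offsets for GC content its adjusted p was 0.0502.

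**Figure D2:**
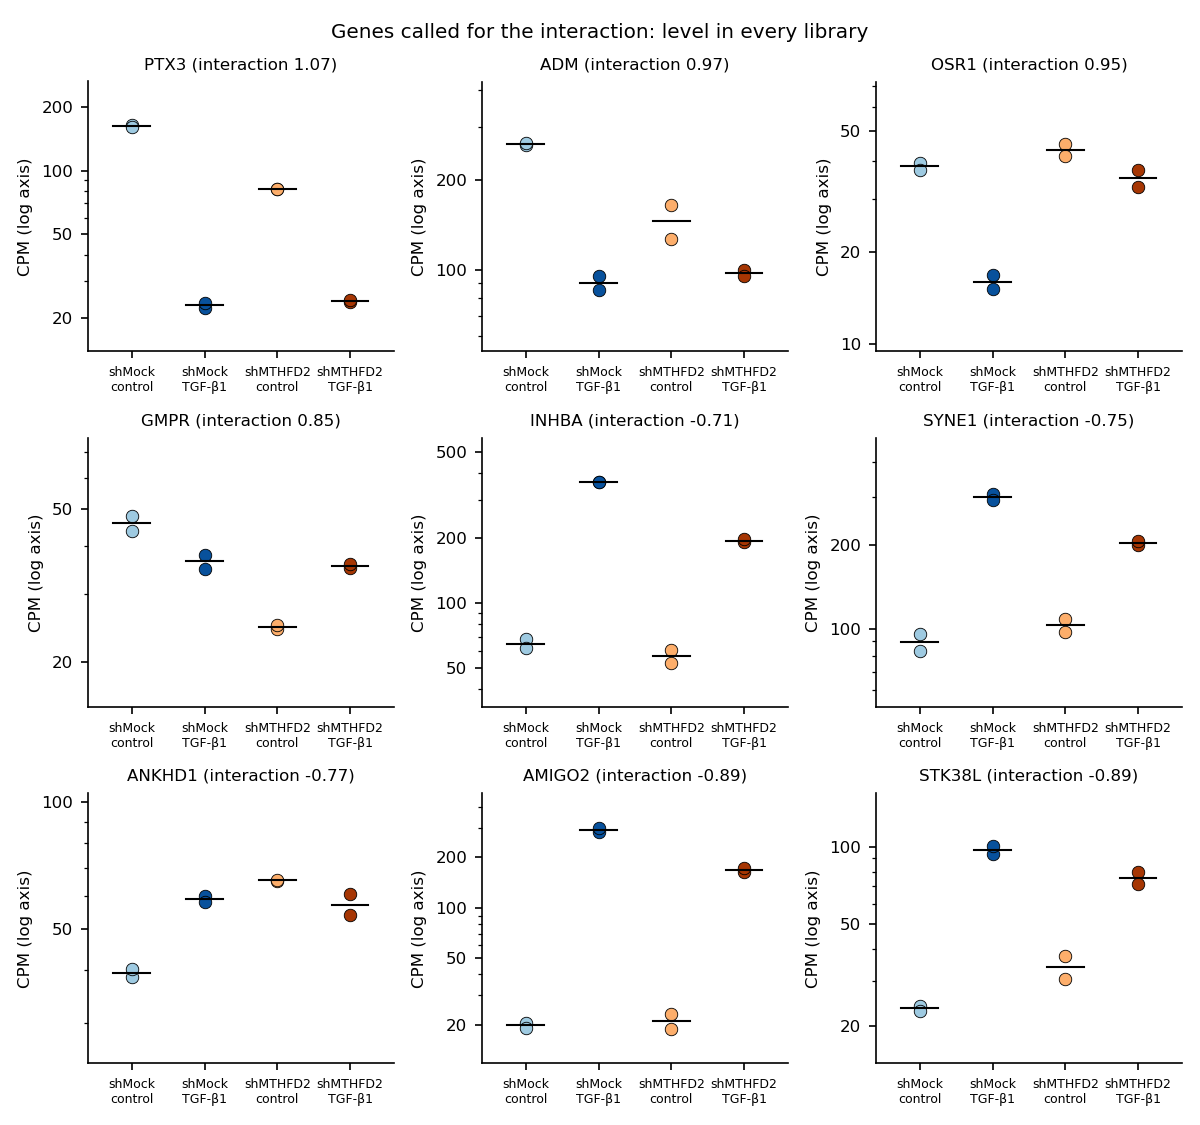
Each panel shows 1 called gene, with its level in CPM on a log axis for the 8 libraries (points) and the mean of each group (bars), and the interaction in the panel title. PTX3, ADM and GMPR of the 2 lines lie close together with TGF-β1 and apart without it, while INHBA, AMIGO2 and SYNE1 lie together or close without TGF-β1 and apart with it.

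INHBA was the called gene with the most direct tie to the pathway. It encodes the subunit that pairs with itself to form activin A, a ligand of the TGF-β family that signals through SMAD proteins (ENSG00000122641, chromosome 7, 41667168 to 41705834, minus strand). Its level was 67.9 and 62.0 CPM in shMock control, 364 and 363 in shMock TGF-β1, 52.7 and 60.6 in shMTHFD2 control, and 191 and 197 in shMTHFD2 TGF-β1. The lines were close without TGF-β1, and with it every shMock library was above every shMTHFD2 library. TGF-β1 raised INHBA 5.6-fold in shMock and 3.43-fold in shMTHFD2, so the log2 response in shMTHFD2 was 71.6% of that in shMock (interaction -0.71, SE 0.12, edgeR adjusted p = 0.0414). The fits without shMock control replicate 1 or shMTHFD2 control replicate 1 called INHBA, and in those without another library its adjusted p rose as high as 0.237. With GC offsets the interaction was -0.56 (edgeR adjusted p = 0.0517).

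AMIGO2, a leucine-rich adhesion protein of the cell surface (ENSG00000139211, chromosome 12, 47075707 to 47079951, minus strand), had the strongest TGF-β1 response of the called genes with a symbol. It stood at 20.6 and 19.1 CPM in shMock control, 286 and 302 in shMock TGF-β1, 18.9 and 23.4 in shMTHFD2 control, and 163 and 172 in shMTHFD2 TGF-β1. Untreated groups overlapped and treated groups did not. The rise was 14.8-fold in shMock and 7.97-fold in shMTHFD2 (interaction -0.89, SE 0.14, edgeR adjusted p = 0.031). Leaving out shMock control replicate 1, shMTHFD2 control replicate 1 or shMTHFD2 TGF-β1 replicate 2 kept the call, and leaving out any other library gave an adjusted p of up to 0.166. By limma-voom its adjusted p was 0.0542. PCED1B lies on the opposite strand, and whether counting used strand is not given in the sources used here.

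SYNE1, a giant protein that links the nuclear envelope to the cytoskeleton (ENSG00000131018, chromosome 6, 152121684 to 152637801, minus strand), stood at 96.1 and 83.3 CPM in shMock control and 306 and 292 in shMock TGF-β1. In shMTHFD2 it was 97.7 and 109 CPM without TGF-β1 and 201 and 208 CPM with it. It rose 3.33-fold in shMock and 1.99-fold in shMTHFD2, with an interaction of -0.75 (SE 0.12, edgeR adjusted p = 0.0328). The knockdown difference was -0.55 with TGF-β1 (edgeR adjusted p = 0.000829) and 0.20 without it (edgeR adjusted p = 0.176), and the lines overlapped in neither condition. An antisense gene overlaps SYNE1. Its call held without shMock control replicate 1 or shMTHFD2 control replicate 1, with an adjusted p of up to 0.186 without another library.

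STK38L, a serine/threonine kinase of the NDR family (ENSG00000211455, chromosome 12, 27243968 to 27325959, plus strand), stood at 23.9 and 22.8 CPM in shMock control, 93.5 and 101 in shMock TGF-β1, 30.4 and 37.4 in shMTHFD2 control, and 80.0 and 71.4 in shMTHFD2 TGF-β1. Libraries of the knockdown line were above the shMock ones without TGF-β1 and below them with it, with no overlap on either side. TGF-β1 raised STK38L 4.15-fold in shMock and 2.24-fold in shMTHFD2 (interaction -0.89, SE 0.15, edgeR adjusted p = 0.0328). It was called without shMock control replicate 1, shMTHFD2 control replicate 1 or shMTHFD2 TGF-β1 replicate 1, and the adjusted p without another library was at most 0.166. It was not called with GC offsets, with library totals or by limma-voom (adjusted p of 0.0517, 0.0528 and 0.0542).

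ANKHD1, a large ankyrin-repeat protein (ENSG00000131503, chromosome 5, 140401814 to 140539856, plus strand), stood at 38.5 and 40.2 CPM in shMock control, 59.8 and 58.1 in shMock TGF-β1, 65.1 and 65.6 in shMTHFD2 control, and 54.0 and 60.5 in shMTHFD2 TGF-β1. Only the untreated shMock libraries lay apart, below the other 6. ANKHD1 rose by 0.58 on the log2 scale in shMock (edgeR adjusted p = 0.000103), its response in shMTHFD2 was -0.19 (edgeR adjusted p = 0.133), and the interaction was -0.77 (SE 0.12, edgeR adjusted p = 0.031). It shares its strand with the read-through gene ANKHD1-EIF4EBP3, so the split of reads between them is uncertain. The call held without shMTHFD2 control replicate 1 or shMTHFD2 TGF-β1 replicate 2, and the adjusted p reached 0.159 without another library.

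The other 3 calls were gene IDs without a symbol in the name tables, named here after their values were seen. All 3 are annotated as protein-coding genes that lie over other genes on the same strand. ENSG00000205236, which overlaps RASA4 and UPK3BL1, had 0 and 0 counts in shMock control, 28 and 66 in shMock TGF-β1, 108 and 83 in shMTHFD2 control, and 0 and 0 in shMTHFD2 TGF-β1. ENSG00000285238, which overlaps CHD4 and NOP2, had 48 to 202 counts in the other 6 libraries and 0 and 0 in shMTHFD2 TGF-β1. ENSG00000250264, which overlaps TAP2 and HLA-DOB, had 361 and 142 counts in shMock control and 36 to 131 in the other 6. How reads in overlapping genes were assigned is not given in the sources used here, so these counts are uncertain and no fold is given.

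Just outside the threshold, the next 6 higher and 5 lower genes by p, among those with a symbol and with responses that did not overlap between the lines, had adjusted p-values of 0.0515 to 0.0687 (edgeR). On the higher side ADH1B, an alcohol dehydrogenase, stood at 23.6 and 21.8 CPM in shMock control and 0.16 and 0.402 in shMock TGF-β1, against 37.1 and 36.3 in shMTHFD2 control and 1.99 and 2.24 in shMTHFD2 TGF-β1. Its treated shMock libraries held 3 and 7 counts, so the interaction of 2.21 (SE 0.39, edgeR adjusted p = 0.0515) rests on few counts. It was called in 6 of the 15 alternatives that could be fitted. The others on that side were the interleukin-6 receptor IL6R (0.96), the creatine kinase CKB (0.81), the cell cycle regulator RGCC (0.80), the metallothionein MT2A (0.78) and the prostaglandin E2 receptor PTGER2 (0.67). IL6R went from 51.8 and 49.7 CPM to 4.42 and 3.96 CPM in shMock and from 55.4 and 56.8 CPM to 9.60 and 8.49 CPM in shMTHFD2, so the lines overlapped in neither condition.

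On the lower side stood the transcription factor ZBTB20 (-1.92), the vasoconstrictor peptide EDN1 (-1.56), the ubiquitin ligase gene RNF150 (-1.15), the AMPK-related kinase NUAK1 (-0.82) and the hyaluronan-degrading CEMIP2 (-0.67). EDN1 went from 1.08 and 1.03 CPM to 29.3 and 27.6 CPM in shMock and from 1.44 and 1.55 CPM to 12.6 and 14.6 CPM in shMTHFD2. Its treated shMTHFD2 libraries lay below both treated shMock libraries. In IL6R, CKB, RGCC, PTGER2, ADH1B, EDN1, NUAK1, RNF150 and CEMIP2 the shMTHFD2 response had the sign of the shMock one and was smaller, while in MT2A and ZBTB20 the signs were opposite. None of these 11 passed the test, and 34 genes did at an adjusted p under 0.1.

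A smaller response in shMTHFD2 was also the more frequent form among all TGF-β1 responders. To count them, genes were taken by the mean response of the 2 lines, a contrast orthogonal to the difference between them in this balanced design. It is independent of that difference only where both responses spread alike, which was not tested. Where the shMock response spreads more, such picking by itself favours a smaller response in shMTHFD2. Between replicates, chi-square over its degrees of freedom was 9.95 in shMock control and 9.13 in shMock TGF-β1. It was 9.34 in shMTHFD2 control and 6.09 in shMTHFD2 TGF-β1. The mean response rose in 2772 genes (20.5%) and fell in 2891 (21.4%), at an edgeR adjusted p under 0.05. Of the genes that rose, 61.8% had the smaller response in shMTHFD2, with a median of 0.48 in shMock and 0.40 in shMTHFD2. Of those that fell, 70.7% had the smaller fall in shMTHFD2, with medians of -0.54 and -0.40. Among the 433 genes that rose by at least 1 on the log2 scale, the share was 55%, and among the 457 that fell by at least 1 it was 70%. The shares ran from 58.5% to 66.7% for the genes that rose and from 59.8% to 74.6% for those that fell over the other scalings, GC offsets, DESeq2 and the fits that left out 1 library. Scaled on library totals alone, 1820 genes rose and 4746 fell. For the genes that changed by at least 1, they ran from 51.9% to 62% and from 56.6% to 75.2%. Among the 7830 genes whose mean response was not called, 48.6% had an interaction below 0. That is another measure than the shares above and no baseline for them. These are counts over genes of the same libraries and carry no test.

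Of the 5 genes with the highest and the 5 with the lowest mean response, 0 were called for the interaction by edgeR, and ADH1B, the deepest fall, is the one described above that came nearest. ELN, the elastin precursor, went from 0.629 and 0.542 CPM to 46.7 and 44.5 CPM in shMock and from 0.37 and 0.103 CPM to 44.4 and 34.9 CPM in shMTHFD2 (interaction 1.05, SE 0.54, edgeR adjusted p = 0.444). Its untreated shMTHFD2 libraries held 8 and 2 counts, and the interaction was 2.2 without the first and 0.43 without the second. RASGRP3, an activator of RAS proteins, went from 2.60 and 2.32 to 113 and 116 CPM in shMock and from 3.15 and 2.79 to 144 and 128 CPM in shMTHFD2 (interaction -0.03, SE 0.20). The treated RASGRP3 libraries of shMTHFD2 lay above those of shMock. The growth factor IGF1 had 2 and 0 counts in shMock control, 0 and 0 in shMTHFD2 control, 52 and 63 in shMock TGF-β1 and 99 and 85 in shMTHFD2 TGF-β1. WNT11, a Wnt ligand, had 0 to 1 counts in every untreated library and 89 to 111 in the treated ones. ZPLD1, a zona pellucida domain gene, had 0 to 2 counts untreated and 26 to 57 treated, and no fold is drawn from such untreated counts.

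Among the genes with the deepest falls, the plasminogen activator inhibitor SERPINB2 went from 72.6 and 75.7 CPM to 4.10 and 3.10 CPM in shMock and from 46.7 and 49 CPM to 2.14 and 4.93 CPM in shMTHFD2 (interaction 0.60, SE 0.32, edgeR adjusted p = 0.46, and -0.12 without shMTHFD2 TGF-β1 replicate 2). SLC7A14, a solute carrier, went from 25.6 and 24.8 CPM to 1.01 and 1.09 CPM in shMock and from 21.4 and 19.3 CPM to 1.38 and 0.966 CPM in shMTHFD2 (interaction 0.47, SE 0.32, edgeR adjusted p = 0.561). The treated libraries of the 2 lines overlapped for both genes. TBC1D3D and 1 of the IDs with the symbol MKKS also fell by this measure, with counts of 0 beside counts of 17 to 98 within a group, and are not described further.

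Most of the TGF-β programme itself had no called interaction. Of 36 tested TGF-β and SMAD targets, 27 rose and 3 fell with TGF-β1 in shMock, and 28 rose and 0 fell in shMTHFD2. The median response was 1.39 in shMock and 1.44 in shMTHFD2, the median interaction was 0.01 against 0.02 over all genes, and 1 of the 36, INHBA, was called, lower. The feedback inhibitor SMAD7 had an interaction of 0.14 (95% interval -0.25 to 0.54), and the cytokine IL11 one of -0.48 (edgeR adjusted p = 0.259). Members of this and the lists below that are not the most abundant ones were picked after their values were seen.

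Ligands, receptors and latent binding proteins of TGF-β had 0 of 26 members called and a median interaction of -0.05, which lay at 0.04 without shMock TGF-β1 replicate 1. At an unadjusted p under 0.05, 6 were higher and 4 lower, against 7.63% and 5.1% of all tested genes. The ligand TGFB2 stood at 34.0 and 29.3 CPM in shMock control, 54.2 and 57.1 in shMock TGF-β1, 21.9 and 23.0 in shMTHFD2 control, and 27.3 and 29.4 in shMTHFD2 TGF-β1 (interaction -0.48, SE 0.15, edgeR adjusted p = 0.238). The type I receptor TGFBR1 had -0.34 and ITGAV, an integrin chain that helps to release latent TGF-β, had -0.41, while the latent binding protein LTBP4 had 0.42 (edgeR adjusted p = 0.313, 0.221 and 0.262). The abundant LTBP1, which tethers latent TGF-β to matrix, had an interaction of 0.01, and ITGB1 one of -0.07.

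Of 34 contractile and stress fibre genes, 26 rose in shMock and 23 in shMTHFD2, and 0 were called for the interaction. ACTA2, the smooth muscle actin that marks myofibroblasts, stood at 101 and 104 CPM in shMock control, 1314 and 1277 in shMock TGF-β1, 93.9 and 88.0 in shMTHFD2 control, and 861 and 843 in shMTHFD2 TGF-β1. The treated shMTHFD2 libraries lay below the treated shMock ones, and the interaction was -0.43 (SE 0.11, edgeR adjusted p = 0.159). The actin-binding CALD1 had -0.53 (edgeR adjusted p = 0.123) and the focal adhesion protein LPP -0.72 (edgeR adjusted p = 0.0908), while TAGLN had 0.20 and CNN1 0.07. The abundant cytoskeletal actins had 0.27 for ACTB and 0.35 for ACTG1. The list median was 0.04 and turned to -0.07 with GC offsets and to -0.02 without shMTHFD2 TGF-β1 replicate 1.

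Matrix genes had 0 called members in each of 4 lists. The median interaction was 0.09 over 25 collagen chains, 0.07 over 29 genes of collagen folding, hydroxylation and crosslinking, 0.06 over 33 glycoproteins and proteoglycans, and 0.03 over 29 proteases and inhibitors. With GC offsets the first, the second and the last of these were -0.03, -0.03 and -0.04. COL1A1, the main fibrillar collagen chain, stood at 12514 and 10657 CPM in shMock control, 26189 and 23430 in shMock TGF-β1, 10841 and 9624 in shMTHFD2 control, and 25455 and 25546 in shMTHFD2 TGF-β1 (interaction 0.22, 95% interval -0.09 to 0.53). The lines overlapped with TGF-β1. Fibronectin, FN1, had an interaction of -0.14 (interval -0.49 to 0.22), TGFBI one of -0.03, and CCN2, a matricellular target of both SMAD and YAP, one of -0.11 (interval -0.36 to 0.14).

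The 13 mRNAs encoded by mitochondrial DNA had the median furthest from 0 among the lists of 8 or more tested members, although 0 of 13 passed the test. They encode subunits of respiratory complexes and ATP synthase, and they are processed from shared precursor transcripts, so they are not 13 independent readings. All 13 interactions were below 0, from -1.09 for MT-ND6 to -0.66 for MT-CO1, with a median of -0.86. Each had an unadjusted p under 0.05, against 5.1% of all genes in that direction, and library responses that did not overlap between the lines, against 11.9%, with adjusted p-values of 0.1 to 0.244 (edgeR). None rose or fell in shMock (median response 0.15), and 13 of 13 fell in shMTHFD2 (median -0.72).

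MT-ND2, a subunit of complex I, stood at 1902 and 1325 CPM in shMock control, 1927 and 1990 in shMock TGF-β1, 2133 and 2881 in shMTHFD2 control, and 1476 and 1576 in shMTHFD2 TGF-β1 (interaction -1.0, SE 0.21, edgeR adjusted p = 0.1). The untreated shMTHFD2 libraries were the highest and replicate 2 of shMock control the lowest. Mitochondrial genes took 5.51% and 3.89% of the counts in shMock control, 4.41% and 4.65% in shMock TGF-β1, 6.24% and 7.74% in shMTHFD2 control, and 3.83% and 3.97% in shMTHFD2 TGF-β1. The spread within the untreated groups is therefore large next to the difference between lines. The calls changed with the fit: edgeR called 12 of the 13 lower without shMock control replicate 1, 11 without shMTHFD2 control replicate 1 and 13 with no filter on low counts, and 0 in the other 6 fits that left out 1 library. The list median was -0.61 without shMock control replicate 2, -1.21 without shMock control replicate 1 and -0.81 with GC offsets.

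Nuclear genes of the same respiratory complexes gave other values. Of 32, 26 lay above 0, against 52.8% of all tested genes, 0 were called, and the median interaction was 0.13, with responses of -0.16 in shMock and -0.03 in shMTHFD2. ATP5F1B and ATP5F1A, the catalytic core of ATP synthase, had interactions of 0.05 and 0.08. The difference between the mitochondrial and the nuclear list was not tested. Among 25 genes of mitochondrial biogenesis and translation, 0 were called, the median was 0.14, and the mitochondrial transcription factor gene TFB2M had -0.80 (SE 0.30, edgeR adjusted p = 0.302).

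**Figure D3:**
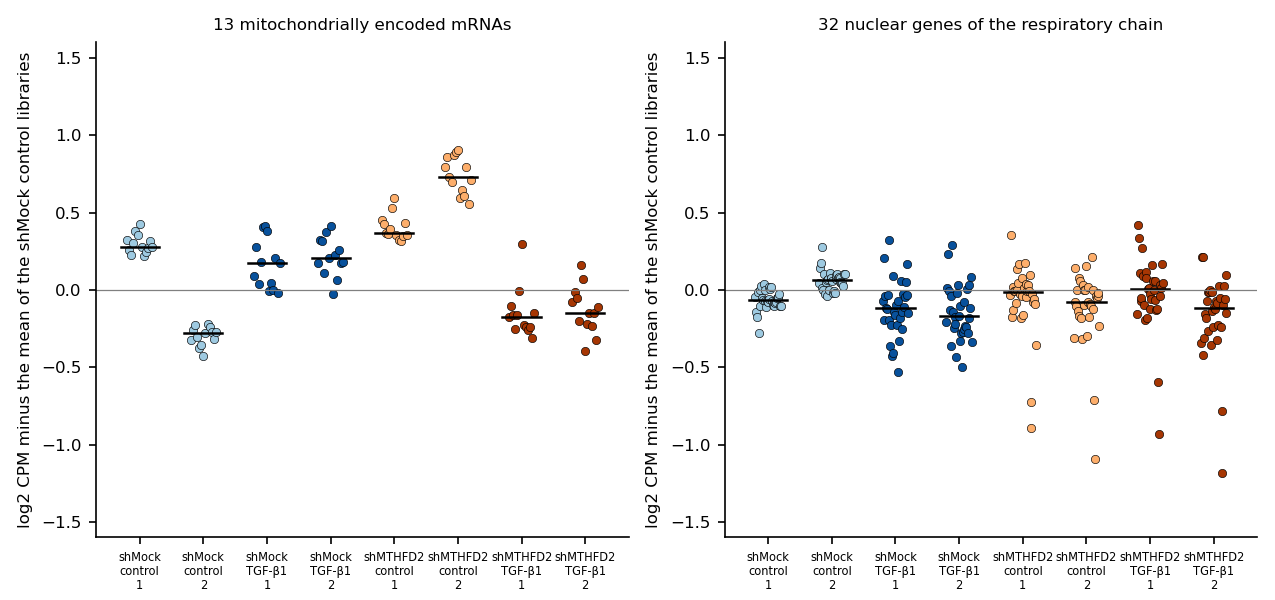
Points are genes in each of the 8 libraries, as log2 CPM minus the mean of that gene in the shMock control libraries, and bars are medians, with mitochondrially encoded mRNAs on the left and nuclear respiratory chain genes on the right. The mitochondrial mRNAs shift as a block, up in both shMTHFD2 control libraries and down in both shMTHFD2 TGF-β1 libraries, and the 2 shMock control libraries lie on opposite sides of 0, while the nuclear genes stay near 0 in each library.

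Enzymes of the folate and serine pathways around MTHFD2 had 0 of 25 members called and a median interaction of 0.10. PHGDH, the entry enzyme of serine synthesis, stood at 52.8 and 57.4 CPM in shMock control, 109 and 119 in shMock TGF-β1, 36.0 and 32.5 in shMTHFD2 control, and 105 and 99.0 in shMTHFD2 TGF-β1. The untreated shMTHFD2 libraries were the lowest, and the interaction was 0.53 (SE 0.13, edgeR adjusted p = 0.148). PSAT1, the next enzyme, had 0.26, the mitochondrial serine hydroxymethyltransferase SHMT2 had 0.20 (interval -0.04 to 0.43), and MTHFD1L, which acts after MTHFD2, had 0.18 (interval -0.07 to 0.42). The list median lay between 0.08 and 0.16 over the fits that left out 1 library.

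De novo purine and pyrimidine synthesis had 0 of 19 called and a median of 0.04, with 0.10 for PRPS1. ATF4 targets, the amino acid stress programme, had 0 of 32 called and a median of 0.09, although 24 of them rose with TGF-β1 in each line. ATF4 had an interaction of 0.10 and the asparagine synthetase ASNS one of 0.04 (interval -0.29 to 0.37). Aminoacyl-tRNA synthetases had 0 of 20 called and a median of 0.05, and unfolded protein response genes 0 of 23 and -0.04, with 0.04 under GC offsets. Proline, glutamine and amino acid genes had 0 of 15 called and a median of 0.08.

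In the immune lists edgeR called 0 genes. Of 27 antigen presentation and checkpoint genes, 20 lay above 0, against 52.8% of all tested genes. At an unadjusted p under 0.05, 7 were higher and 1 lower, against 7.63% and 5.1% of all tested genes, and the median was 0.23, or 0.11 with GC offsets. PSMB10, an immunoproteasome subunit, had 0.85 (SE 0.24, edgeR adjusted p = 0.213), HLA-C 0.35 and B2M, the shared light chain of MHC class I, -0.01. Of 51 interferon-stimulated genes, 22 fell with TGF-β1 in shMock and 10 in shMTHFD2, against 18.1% and 11% of all tested genes. For the interaction 0 were called, 7 were higher and 1 lower at an unadjusted p under 0.05, and the median was 0.14, or 0.03 without shMock TGF-β1 replicate 1. The ubiquitin-like ISG15 stood at 377 and 364 CPM in shMock control, 195 and 234 in shMock TGF-β1, 180 and 126 in shMTHFD2 control, and 161 and 146 in shMTHFD2 TGF-β1. The untreated shMock libraries lay above the other 6, and the interaction was 0.80 (SE 0.19, edgeR adjusted p = 0.143). Sensors, JAK-STAT and IRF genes had 0 of 25 called and a median of 0.09, and chemokines, cytokines and NF-kappaB targets had 0 of 14 called and a median of 0.08.

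Signalling and metabolic lists gave 3 of the calls already described. Glycolysis and hypoxia genes had 1 of 25 called, ADM, and 22 of 25 above 0, with a median of 0.22 (0.17 with GC offsets). The hypoxia genes VEGFA and SLC2A1 had -0.13 and 0.22, and NDRG1 had 0.43 (edgeR adjusted p = 0.226). Wnt, BMP, Notch and growth factor genes had 1 of 49 called, INHBA, and a median of 0.11, and FST, which binds and blocks activin, had 0.39 (SE 0.11, edgeR adjusted p = 0.187). FST stood at 544 and 541 CPM in shMock control, 803 and 769 in shMock TGF-β1, 294 and 308 in shMTHFD2 control, and 560 and 586 in shMTHFD2 TGF-β1, lower in shMTHFD2 in both conditions. Mesenchymal identity and EMT factors had 1 of 24 called, OSR1, with 0.48 for FOXF1 and 0.79 for TWIST1 but -0.43 for SNAI2 (edgeR adjusted p = 0.148, 0.168 and 0.162).

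Immediate-early factors had 0 of 28 called, 23 above 0 and a median of 0.23, which was 0.07 with GC offsets. Alcohol and aldehyde dehydrogenases and retinoid genes had 0 of 12 called and 0.23, NRF2 and superoxide genes 0 of 27 and 0.16, and cholesterol and fatty acid genes 0 of 25 and 0.10. HMOX1, the heme oxygenase of the NRF2 list, fell in shMock by 0.53 on the log2 scale against -0.02 in shMTHFD2 (interaction 0.50, edgeR adjusted p = 0.153). SRF cofactors and YAP/TAZ targets had 0 of 25 called and a median of -0.05, and cytosolic ribosomal proteins 0 of 30 and 0.12. Mitosis genes had 0 of 31 called and a median of -0.19, which was -0.04 without shMock TGF-β1 replicate 1 and -0.11 with GC offsets. The call counts and medians were 0 of 33 and 0.13 for DNA replication genes, 0 of 23 and 0.07 for CDK inhibitors and p53 targets, and 0 of 13 and 0.10 for polyadenylated histone genes. The marker lists of fibroblasts and of smooth muscle, pericytes and mesothelium had 0 of 12 and 0 of 8 called, with medians of 0.10 and 0.17, the latter -0.01 with GC offsets. Endothelial, epithelial and leukocyte markers had 0 of 3, 0 of 3 and 0 of 1 called.

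The list medians moved with single libraries. That of the mitochondrial mRNAs, -0.86, ran from -1.21 to -0.61, which stayed within the ratio of 1.5 used next. Medians near 0 pass that ratio with small shifts. In 34 of the 35 lists of 8 or more tested members, leaving out 1 library changed the median by over 1.5 times or turned its sign in at least 1 of the 8 fits, most often without shMTHFD2 control replicate 2 (25 medians moved by over 1.5 times and 4 turned). Without shMTHFD2 TGF-β1 replicate 1, the median went from 0.13 to 0.03 for nuclear respiratory chain genes and from 0.12 to 0.03 for ribosomal proteins.

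Of the 31 lists with 8 or more tested members and 0 calls in the main edgeR fit, 18 held a call with no filter. It was 2 lists with a mean of at least 10 CPM, and 1 each with median-of-ratios size factors and GC offsets. With library totals or a replicate block it was 0. Some edgeR fits that left out 1 library also called members of these lists. In the lists where the main edgeR fit called 0 members, limma-voom also called 0, and DESeq2 called some. These were ITGAV, the contractile genes ACTA2, CALD1 and LPP, the collagen hydroxylase PLOD2, the proteases ADAM19 and ADAMTS5, the p53 target ZMAT3 and the collagen receptor DDR2, all lower, with VCAN and CEMIP in opposite directions. PHGDH, the feedback inhibitor SOCS3 and the interferon-stimulated IFI6, IFI35 and USP18 were called higher. In the lists with an edgeR call DESeq2 also called FST, FZD2, IGFBP3 and FOXF1 higher and NUAK1 and SNAI2 lower. At an unadjusted p under 0.05 in edgeR, which 7.63% of all genes met on the higher side and 5.1% on the lower, 9 glycoproteins and proteoglycans were higher and 2 lower, and 6 NRF2 and superoxide genes were higher and 0 lower. The same count was 5 higher and 0 lower for immediate-early factors and for ribosomal proteins, 5 higher and 1 lower for nuclear respiratory chain genes, 2 higher and 5 lower for contractile genes, and 3 higher and 5 lower for proteases and inhibitors. The lists with 0 calls and no such count given here or above had 0 to 4 in each direction. In the lists with a call, it was 10 higher and 5 lower of 49 Wnt, BMP, Notch and growth factor genes. It was 7 and 1 of 25 glycolysis and hypoxia genes, and 6 and 4 of 24 mesenchymal identity and EMT factors. Of 36 TGF-β and SMAD targets, 2 were higher and 4 lower.

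**Figure D4:**
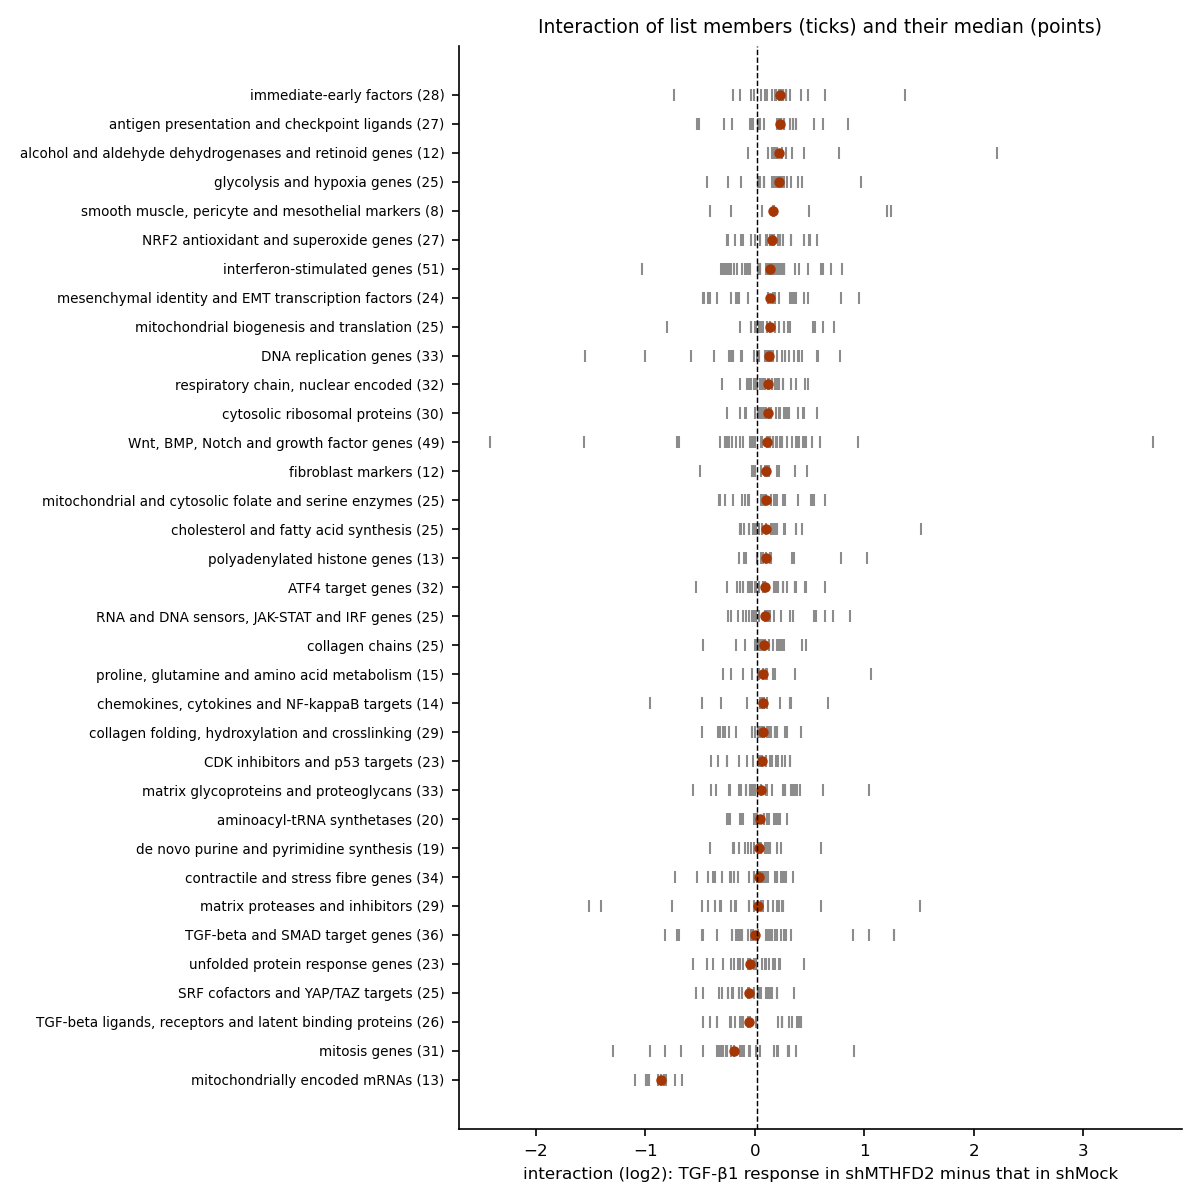
Ticks are the interactions of the tested members of each list with 8 or more, points the list medians and the dashed line the median of all tested genes, with the number of members in brackets. The mitochondrially encoded mRNAs (median -0.86) stand apart on the left, and the other medians lie between -0.19 and 0.23.

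The interaction moved with base composition. Spearman's correlation of interaction and GC content was 0.473 across 13416 genes, and it was -0.266 with transcript length. With the genes split into 5 equal groups by GC content, from the lowest to the highest, the median interaction was -0.15, -0.08, 0.01, 0.11 and 0.22. The shMock response ran from 0.12 to -0.22 over these groups, while the shMTHFD2 response stayed between -0.02 and 0.01. The deviation of single libraries from the gene means correlated with GC at 0.189 and 0.174 in shMock control, -0.3 and -0.214 in shMock TGF-β1, 0.242 and -0.161 in shMTHFD2 control, and 0.164 and 0.0115 in shMTHFD2 TGF-β1. The shMTHFD2 control replicates thus had opposite signs. With offsets that take this trend off each library, 12 genes were called, 6 higher and 6 lower, and 9 of them were among the 12 above. The antigen presentation list, with a median GC content of 54% against 48% over all genes, went from a median of 0.23 to 0.11 with the offsets.

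**Figure D5:**
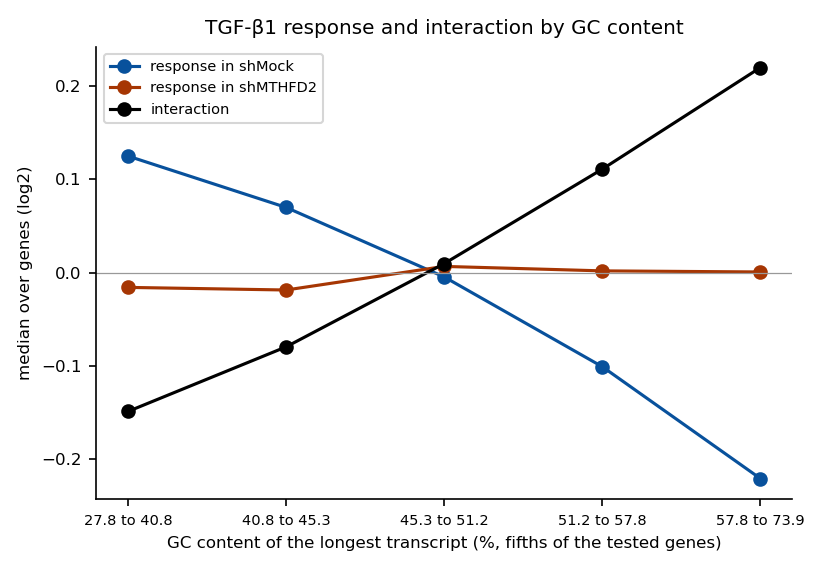
Points are medians over the genes of each of 5 equal groups by GC content (%, of the longest transcript), for the TGF-β1 response in each line and for the interaction, all on the log2 scale. The shMock response falls from the lowest to the highest group, the shMTHFD2 response stays near 0, and the interaction rises from -0.15 to 0.22.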

How the data were processed

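Counts per gene of 8 RNA-seq libraries were taken as deposited (whole numbers, 60666 Ensembl gene IDs, although the file's name speaks of FPKM). Per the submitters' processing notes, STAR 2.7.1a, DESeq2 1.32.0 and GRCh38 were used. Not given in the sources used here: their roles, the read counter and whether strand was used. The 13493 genes that average 1 CPM or more hold 99.8 to 99.9% of the counts. A gene with 3 counts stands at 0.135 to 0.165 CPM. All 8 libraries entered 1 edgeR 4.0.16 quasi-likelihood fit (R 4.3.3, TMM scaling, a mean per group, 4 residual degrees of freedom), with Benjamini-Hochberg adjustment over all tested genes. SEs come from each fold change with its F value. The procedure was tested on simulated data. Levels are CPM on TMM-scaled totals.

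Named genes were all called genes with a symbol whose library responses did not overlap (each of the 4 treated-minus-control differences of 1 line above or below all 4 of the other), then the next by p up to 10 in each direction, the called or the 2 most abundant members of each of 38 gene lists, and the 5 highest and 5 lowest mean responses. Some list members under this rule are not reported here. Members and lists were chosen with earlier results of these data known. Positions and overlaps came from GENCODE 29, which holds 58420 of the IDs, and 42023 have a symbol. Start regions are from RefSeq. Alternatives were DESeq2 1.42.0, limma-voom (limma 3.58.1), other scalings and filters, GC offsets, a replicate block and leaving out each library.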

Additional observations from a re-analysis of the deposited data

Results flagged for a closer look

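The edgeR interaction test called a difference between the TGF-β1 responses of the 2 lines for 9 genes with a symbol, which is why they are listed here. In log2 units, shMTHFD2 minus shMock, the values were 1.07 for PTX3, 0.967 for ADM, 0.949 for OSR1 and 0.854 for GMPR on the higher side. On the lower side they were -0.893 for STK38L, -0.889 for AMIGO2, -0.773 for ANKHD1, -0.746 for SYNE1 and -0.707 for INHBA. The groups hold 2 libraries each, so no library was tested as lying apart from its group. PTX3 was called in 8 of 8 fits that left out 1 library, and the other 8 genes in 2 to 4 of 8.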

How the results depend on the processing

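The 12 calls (5 higher, 7 lower) became 14 with median-of-ratios size factors and 11 with library totals, and limma-voom called 10. With no filter edgeR called 321 genes (172 higher, 149 lower), of which 290 were above the filter. The prior degrees of freedom, 10.8 in the filtered fit, were then infinite, so every gene took its spread from the trend. A mean of at least 10 CPM gave 25 (11 higher, 14 lower), DESeq2 105 (53 higher, 52 lower), and an adjusted p threshold of 0.1 gave 34. Of the 12 genes called at an adjusted p under 0.05, 4 had an interaction of at least 1 in size on the log2 scale. DESeq2 gave an adjusted p for 6953 genes, and the cause of its count was not tested. Leaving out 1 library gave 3 to 185 calls, 1 to 99 higher and 2 to 86 lower. No interaction of a named gene that was called turned its sign under these alternatives.

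Same-numbered samples correlated at -0.0749 to 0.255 in their deviations from the group means (9798 genes). The 0.255 was between shMTHFD2 control and shMTHFD2 TGF-β1, and the other pairs of groups reached at most 0.0385. With 2 libraries per group, these values cannot settle whether the numbers pair the samples. With the replicate number as a replicate block, 13 genes were called (6 higher, 7 lower), 11 of them among the 12, and INHBA had an adjusted p of 0.0511. With 2 libraries per group, a library left out leaves a lone sample that is assumed to vary like the other groups. Depth limits genes near the floor of 3 counts, as for ADH1B and ELN.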
